A study of Mus musculus with 8 samples.

Results

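Mitochondrially encoded transcripts were followed in single cells of the mouse lung after cigarette smoke (CS) or room air (RA). The members were taken by name as all genes of the deposited gene list whose symbol starts with mt-, which gave 37 of 33027 genes. They comprise 13 protein genes, 2 rRNA genes and 22 tRNA genes. Mammalian mitochondrial DNA is a small circle inside the organelle that is transcribed from both strands into long precursors, and the tRNAs lying between the other genes mark where the precursors are cut. The 13 proteins are core subunits of the respiratory chain and ATP synthase, the 2 rRNAs belong to the mitochondrial ribosome, and the tRNAs serve that ribosome. In the lung, AT2 and ciliated cells are known for dense mitochondria, while AT1 cells are thin cells that line the gas exchange surface.

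The study exposed 4 mice to smoke of 3R4F research cigarettes for 10 months and kept 4 littermates in room air. All 8 were Sftpc-CreERT2-mTmG mice on C57BL/6, and all had received tamoxifen at 8 to 10 weeks of age. This switches AT2 cells, in which the Sftpc promoter drives the Cre, from the tdTomato to the eGFP reporter. CS mice are named C2, C5, D2 and D5, and RA mice F1, F3, M1 and M3. Each of the 4 sequencing lanes held 1 mouse of each group (C2 with F1, D2 with F3, C5 with M1 and D5 with M3). Lung cells were dissociated with collagenase and elastase, separated with CD45 beads, and remixed with CD45-negative cells in the majority. They were loaded on the 10x Genomics 3' platform, which primes from poly(A) tails.

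Total transcripts per mouse ran from 31094695 to 52753531, with a median of 4254 to 6473 per cell, in 40074 cells of the named types. Both CS libraries labelled male held the female transcript Xist at 7.83 and 8.34 per 10,000, and both labelled female held the Y-linked Ddx3y, whereas the RA libraries matched their labels. Of 82 markers listed for 21 types, 71 were highest in their own type. Of the 3 markers listed for the cells labelled Mast, Cpa3 was highest in them, at 6.87 per 10,000, while Mcpt4 was at 0 and Kit at 0.113, so they are named here by their label alone. Pairs of libraries from the same lane shared 7 to 11 cell barcodes, and pairs from other lanes 1 to 14.

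A level below is the number of transcripts of a gene per 10,000 transcripts of the cell, averaged over all cells that a mouse contributed to a type, so n is the number of mice. It is a share, so a rise in it cannot be told apart from a fall in the other transcripts. Cell types with at least 20 cells in at least 3 mice of each group were compared, 22 in all. Genes with a transcript in 10% or more of the cells in CS or in RA were tested with limma on log2(level + 1), which understates the change of low genes, and p values were adjusted over all genes of the type.

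The genome itself limited which members could be read. A stretch of chromosome 1 holds 7 annotated pseudogenes that copy part of the mitochondrial genome (GRCm38, chr1:24611535-24616197, minus strand). Gm28661 matched mt-Co2 over 681 bases at 100% identity, Gm10925 matched mt-Atp6 over 678 bases at 100%, and Gm28437 matched mt-Co3 over 783 bases at 100%. Gm28438 matched mt-Nd3 at 99.7% and Gm10222 matched mt-Nd4l at 100%. For mt-Nd4 the copy, Gm28439, covered the first 876 of 1378 bases and left the last 502 free. Reads from identical stretches cannot be told apart, so the levels of mt-Co2, mt-Atp6, mt-Co3, mt-Nd3 and mt-Nd4l are uncertain. The 3' ends of mt-Co1 and mt-Atp8 are shared as well. For mt-Co1, the last 483 bases matched Gm29216 at 99.8%, and for mt-Atp8 the last 43 of 204 bases were identical in Gm10925, so these 2 levels, on which 3 of the 13 calls below rest, are uncertain too. A further copy of mt-Co1, Gm13340 on chromosome 2, matched over 1545 bases at 97.6%. It was read at 0.444 to 2.66 per 10,000 in the single mice. For mt-Nd2, on which 2 calls rest, the last 510 bases matched Gm13339 on chromosome 2 at 96.7%, and that copy was read at 0.0523 per 10,000 or less in every mouse. The best copy of mt-Cytb was Gm11410 on chromosome 4, at 92.9% identity.

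The ends below are shown because this platform reads near the 3' end. They are the last 30 bases of each gene, 5′ to 3′, from the GENCODE M21 transcripts (GRCm38), read on the coding strand. Lower case marks a base shared with the best annotated copy of at least 90% identity, and capitals mark a base that it does not share.
mt-Atp6: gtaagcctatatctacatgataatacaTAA
mt-Co3: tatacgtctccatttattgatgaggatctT
mt-Nd3: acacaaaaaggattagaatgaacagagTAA
mt-Co1: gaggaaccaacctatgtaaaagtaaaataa
mt-Cytb: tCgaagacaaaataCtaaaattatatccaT
mt-Nd2: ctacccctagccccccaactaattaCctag
mt-Nd1: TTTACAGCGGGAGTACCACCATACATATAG
mt-Nd4: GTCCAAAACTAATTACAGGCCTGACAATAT
The end of mt-Co1 was shared in 30 of 30 bases and that of mt-Nd2 in 29, those of mt-Atp6, mt-Co3 and mt-Nd3 up to the last bases, and those of mt-Nd1 and mt-Nd4 had no such copy.

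Per kilobase of gene, averaged over the 22 types, mt-Rnr2 stood highest at 27.9 transcripts per 10,000, followed by mt-Cytb at 26.7. The complex I subunits mt-Nd1, mt-Nd2 and mt-Nd4 came next, at 16.2, 15.8 and 14.4, and were close to each other. Below them lay mt-Rnr1 at 8.19, mt-Atp8 at 3.35, mt-Co1 at 3.21 and mt-Nd5 at 2.09. Since reads come from near the 3' end, this order depends on the division by length: undivided, mt-Co1 was at 4.97 and the short mt-Atp8 at 0.683. The genes mt-Co3, mt-Atp6 and mt-Co2, uncertain because of their copies, lay between 0.453 and 0.624. mt-Nd6, the protein gene of the other strand, lay at 0.358. mt-Nd3 and mt-Nd4l were read at only 0.0171 and 0.0108, and passed the filter in none of the 22 types. Over all cells and undivided, mt-Nd3 averaged 0.00642 per 10,000, while its copy Gm28438 was read at 1.59 to 3.73 in the single mice. The low level of mt-Nd3 can therefore not be taken as absence. As levels, the highest tRNA value in any type was 0.126 per 10,000 (mean of 8 mice), for mt-Tw in B cells.

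The summed level of the 13 protein genes spanned a wide range over the cell types. Ciliated cells held 252 per 10,000 and AT2 cells 237 (means of 8 mice), followed by club cells at 194, goblet cells at 167 and AT1 cells at 134. Capillary cells were low, with 61.8 in gCap cells and 53.4 in aerocytes. The cells labelled NG, which carried the neutrophil transcript S100a8 at 256 to 366 per 10,000 in every mouse, held the least, 14.2. The order by rRNA was another one. Mesothelium led with 152, AT2 cells held 121 and alveolar macrophages 91.3, while ciliated cells, first by protein genes, held 23.7 and goblet cells 16.01.

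**Figure D1:**
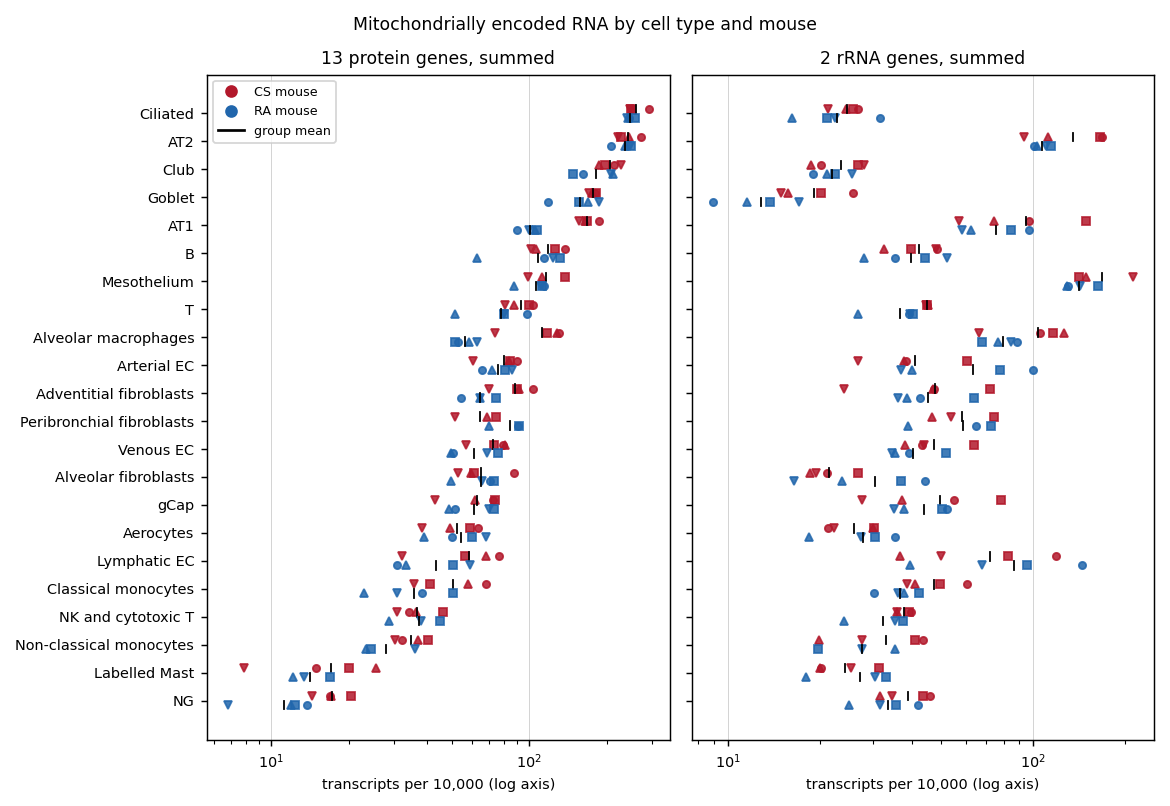
Summed level of the 13 protein genes (left) and the 2 rRNA genes (right) in transcripts per 10,000 on log axes, for 22 cell types ordered by protein level. Each point is 1 mouse, red for CS and blue for RA (circles, squares, upward and downward triangles are C2, C5, D2 and D5 in CS and F1, F3, M1 and M3 in RA), and black bars are group means. The protein points of AT1 cells, alveolar macrophages and NG cells separate by group, and most others overlap.

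Smoke-exposed mice held more mitochondrial mRNA in AT1 cells and alveolar macrophages, and AT2 cells and both capillary types showed no called change. The macrophage calls were less firm. They were lost without any one of C2, C5 or D2, and when cells with over 5% mitochondrial transcripts were left out. Over the 22 types, 275 tests were made on members, and 13 passed an adjusted p of 0.05 (limma), all 13 higher in CS. Over all 173532 tests of any gene, 1.27% passed in either direction and 0.735% passed as higher in CS. The 13 calls fell in AT1 cells (6), alveolar macrophages (5) and ciliated cells (2), and all were protein genes. At an unadjusted p under 0.05, 45 member tests were higher in CS and 1 lower. The median difference of the 275 was 0.12 on the log2 scale, beside 0.01 over all tests. These medians are not like for like, since log2(level + 1) understates the change of low genes. Tests on the same mice are also not independent. The summed protein level was higher in CS on average in 19 of 22 types, and the groups were fully apart in 3.

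**Figure D2:**
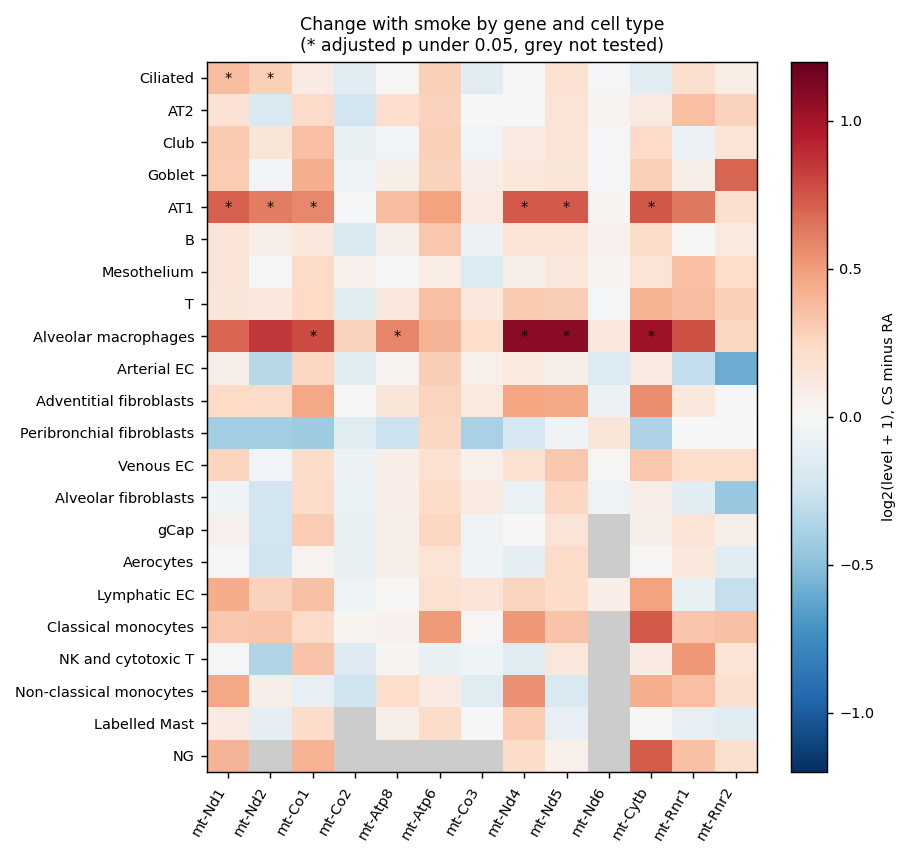
Difference of log2(level + 1), CS minus RA, for 13 genes (columns) in 22 cell types (rows). Stars mark the 13 calls at an adjusted p under 0.05 (limma) and grey marks genes that were not tested; AT1 cells and alveolar macrophages form the strongest rows, and peribronchial fibroblasts, with 3 mice a group, mostly run the other way without a call.

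In AT1 cells, the summed protein level was 186, 167, 164 and 155 in CS mice C2, C5, D2 and D5, and 90.01, 107, 106 and 99.6 in RA mice F1, F3, M1 and M3. Every CS mouse lay above every RA mouse, and within each of the 4 lanes CS exceeded RA. The group means were 168 ± 12.9 and 101 ± 7.81 (SD, n = 4 each), a ratio of 1.67. The cells behind these values numbered 70 to 173 per CS mouse and 50 to 153 per RA mouse. The shift was present in the bulk of the cells. The median AT1 cell held 133 to 167 in CS mice and 79.3 to 97.9 in RA mice, and even the lower quartile was 70.4 to 103 against 31.6 to 57.9.

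The strongest single call was mt-Cytb, the only mitochondrially encoded subunit of complex III (chrM:14145-15288). Its level in AT1 cells was 69.97, 64.3, 67.3 and 62.1 in C2, C5, D2 and D5, and 35.6, 42.5, 42.5 and 35.5 in F1, F3, M1 and M3. The groups did not overlap, and the log2 difference was 0.75 (standard error 0.12, limma adjusted p = 0.0025). In these cells, 1.37% of all 8950 genes tested passed as higher in CS, and 5.74% had groups apart in that direction. Of the 13 members tested, 6 passed and the same number had groups apart.

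The other 5 calls in AT1 cells were 4 complex I subunits and 1 subunit of complex IV. mt-Nd4 (chrM:10167-11544) was at 42.1, 37.7, 35.7 and 33.6 in CS mice and at 18.8, 23.7, 23.8 and 21.9 in RA mice, a log2 difference of 0.73 (limma adjusted p = 0.0048). mt-Nd1 (chrM:2751-3707) was at 25.02, 21.98, 19.9 and 20.7 in CS mice and at 12.6, 12.3, 12.6 and 13.9 in RA mice, with a difference of 0.72 (adjusted p = 0.0035). mt-Nd2 rose from 17.3 ± 1.23 to 26.9 ± 0.981 and mt-Nd5 from 3.17 ± 0.476 to 5.94 ± 0.832 (SD, n = 4). All 4 of these genes were apart between the groups. mt-Co1, the catalytic subunit of complex IV, rose from 4.57 ± 0.630 to 7.35 ± 1.68, with a difference of 0.57 (limma adjusted p = 0.038), a call that was lost without any one of C2, C5, D2, F1, F3 or M3 (adjusted p 0.012 to 0.25 over its alternatives). With lane as a block, which pairs the CS and RA mouse of each lane, its adjusted p was 0.058, and it was 0.059 without a trended variance. The other 5 calls held under the block and with each mouse left out in turn. With no filter on low genes, mt-Nd1 and mt-Cytb still passed, and mt-Nd2, mt-Nd4 and mt-Nd5 had an adjusted p of 0.054 (limma).

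Among the uncalled members of AT1 cells, mt-Atp8 differed by 0.37 (adjusted p = 0.063) and mt-Rnr1 by 0.63 (adjusted p = 0.069, limma), which passed with lane as a block (adjusted p = 0.043). mt-Rnr2, the large rRNA, was at 80.8, 132, 63.3 and 47.9 in CS mice and at 88.2, 74.7, 54.4 and 52.2 in RA mice, so the groups overlapped throughout. Its difference was 0.19 with a standard error of 0.24. The mean of the summed rRNA was 94.4 ± 39.7 in CS and 75.6 ± 18.3 in RA (SD, n = 4), a ratio of 1.249, and CS exceeded RA in 1 of 4 lanes. Without C5, the ratio was 1.01. The lane pairs D2 with F3 and C5 with M1 were unlike in Xist and Ddx3y. The rRNA sum was 97.0, 149, 97.1 and 84.4 in C2, C5, F1 and F3, which held Xist. It was 74.5, 57.3, 62.4 and 58.5 in D2, D5, M1 and M3, which held Ddx3y. These sets of mice were apart in the rRNA of gCap cells too, and overlapped in AT2 cells and alveolar macrophages. The part of sex was not tested. mt-Nd6 was at 0.0706 to 0.141 in CS and 0.0728 to 0.107 in RA.

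Within the protein genes, the shares of mt-Cytb and mt-Nd4 in AT1 cells were close in the groups. mt-Cytb made up 39.3 ± 1.52% of the summed level in CS and 38.8 ± 2.10% in RA (SD, n = 4), and mt-Nd4 22.2 ± 0.539% and 21.9 ± 0.685%. The groups overlapped in both shares. The share of mt-Nd2 was 16.1 ± 0.879% in CS and 17.2 ± 0.707% in RA, overlapping but lower in CS within each lane. That of mt-Nd5 was 3.52 ± 0.335% and 3.15 ± 0.388%, also overlapping. These shares were not tested.

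Other values moved with AT1 cells. Malat1, a long RNA held in the nucleus, was at 464, 459, 534 and 578 in CS mice and at 610, 664, 608 and 603 in RA mice. The groups were apart, although its log2 difference of -0.29 had an adjusted p of 0.089 (limma). The 4 nuclear-retained transcripts together ran from 481 to 598 in CS and from 623 to 683 in RA, with Malat1 most of the sum. Of 14 genes of a dissociation response list, 1 fell in AT1 cells, the phosphatase gene Dusp1, from 6.39 ± 2.28 to 3.38 ± 0.503, where 1.01% of all genes tested passed as lower in CS, and the list's summed level was 41.2 to 50.1 in CS and 47.7 to 64.1 in RA. The median depth per AT1 cell was 8346 to 12857 transcripts in CS mice and 9708 to 17293 in RA mice. The parts of nuclear RNA, dissociation and depth in the AT1 result were not tested. AT1 markers were present in both groups, with Ager, a receptor of the AT1 surface, at 138 to 168 in CS and 160 to 200 in RA. Hemoglobin and other erythroid markers summed to 1.66 to 31.9 in CS and 0 to 30.05 in RA, airway and AT2 transcripts to 10.0 to 78.6 and 0.263 to 52.4, and immune transcripts to 1.30 to 4.69 and 1.95 to 5.81, all overlapping.

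Alveolar macrophages rested on fewer cells, 40 to 49 per CS mouse and 31 to 112 per RA mouse. Their summed protein level was 131, 117, 128 and 73.6 in C2, C5, D2 and D5, and 52.9, 51.7, 58.3 and 62.8 in F1, F3, M1 and M3. The groups were apart and CS exceeded RA within each of the 4 lanes, but D5 stood much nearer to the RA mice than the other 3 CS mice did. The means were 112 ± 26.5 and 56.4 ± 5.13 (SD, n = 4), a ratio of 1.99. By the median cell instead of the mean, the ratio was 2.76.

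mt-Nd4 in alveolar macrophages was at 26.6, 21.6, 24.6 and 12.3 in CS mice and at 7.63, 8.55, 9.60 and 11.1 in RA mice, a log2 difference of 1.08 (standard error 0.20, limma adjusted p = 0.014). mt-Cytb was at 32.5, 25.2, 31.1 and 17.1 in CS mice and at 11.9, 12.3, 10.7 and 14.5 in RA mice, with a difference of 1.01 (adjusted p = 0.014). D5 was the lowest CS mouse for both, still above all RA mice. mt-Co1 rose from 5.57 ± 0.593 to 10.4 ± 1.82, and mt-Atp8, a subunit of ATP synthase, from 0.511 ± 0.0649 to 1.28 ± 0.334 (SD, n = 4). mt-Nd5 passed too, with a difference of 1.08, yet D5 at 2.31 lay below RA mouse M3 at 2.55. Of 13 members tested, 5 passed, while 0.248% of the 7650 genes passed as higher in CS. 6 members had groups apart in that direction, beside 2.63% of the genes.

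These macrophage calls depended on single mice. Without C2, C5 or D2, none of the 13 members passed, without D5 7 did, and without any one RA mouse 2 or 3 did. Leaving out the cells with over 5% mitochondrial transcripts, or testing with no filter on low genes, also left none (limma adjusted p up to 0.47 over the alternatives), with the differences of the 5 genes still positive, at 0.48 or more over all alternatives. mt-Nd1 was the nearest below the threshold, with a difference of 0.70 and an adjusted p of 0.055.

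The rRNA of alveolar macrophages did not follow to the same extent. It summed to 105, 116, 126 and 66.5 in CS mice and to 88.6, 67.7, 76.6 and 84.2 in RA mice, which overlap. The ratio of rRNA to protein-gene level was 0.921 ± 0.0873 in CS and 1.41 ± 0.177 in RA (SD, n = 4), and in this ratio the groups were apart. mt-Rnr1 alone differed by 0.77 (adjusted p = 0.092, limma) and mt-Rnr2 by 0.24 (adjusted p = 0.69).

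Other values of the macrophages overlapped between the groups, apart from Egr1. The immediate early gene Egr1, on the dissociation list, was 2.92 ± 0.781 in CS and 11.7 ± 1.34 in RA, the 1 of 14 genes of that list that passed here, beside 0.301% of all genes passing as lower in CS. The 14 genes summed to 78.7, 62.4, 62.9 and 74.7 in CS mice and 78.6, 80.7, 87.9 and 107 in RA mice, lower in CS but for C2 just above F1. Transcripts typical of other cells were highest in the macrophages of D2. Its epithelial transcripts summed to 50.4 and its erythroid markers to 21.4, while the other 3 CS mice had 2.49 to 7.41 and 0.546 to 0.661, and RA mice 2.45 to 7.19 and 0.169 to 0.777. Malat1 overlapped between the groups, at 61.3 to 77.2 in CS and 48.7 to 108 in RA. Median depth was 4661, 5054, 3252 and 9325 transcripts per cell in C2, C5, D2 and D5. It was 5082, 9917, 5410 and 7904 in F1, F3, M1 and M3. Every CS mouse but D5, the CS mouse nearest to RA in protein level, lay below all RA mice in depth. Marco, a scavenger receptor of alveolar macrophages, was at 6.62 to 19.6 in CS and 4.23 to 9.59 in RA. The part of these differences in the mitochondrial levels was not tested.

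**Figure D3:**
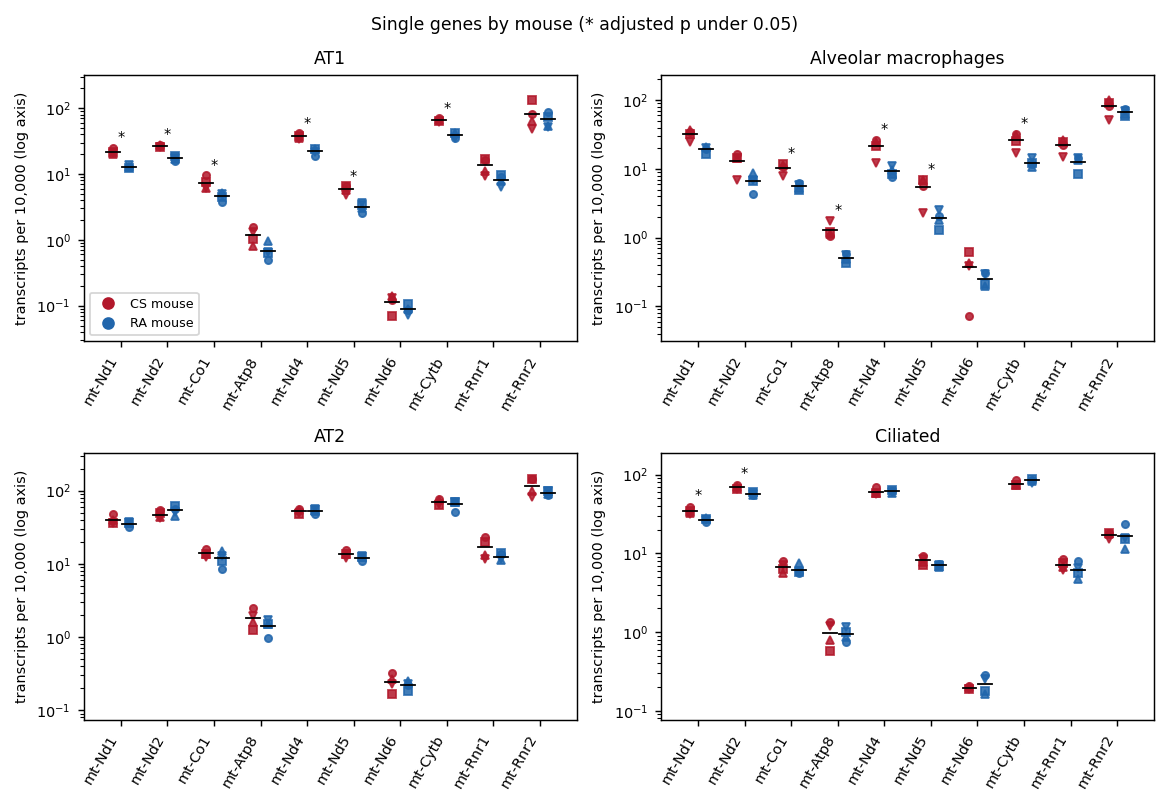
Levels of 8 protein genes and 2 rRNA genes in transcripts per 10,000 (log axis) in AT1 cells, alveolar macrophages, AT2 cells and ciliated cells. Each point is 1 mouse, red for CS and blue for RA (circles, squares, upward and downward triangles are C2, C5, D2 and D5 in CS and F1, F3, M1 and M3 in RA), bars are group means and stars mark an adjusted p under 0.05 (limma); in AT1 cells 6 genes separate by group, and in AT2 cells all overlap.

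In AT2 cells, none of the 13 members tested passed, and none had an unadjusted p under 0.05 (limma). No gene at all passed there among 9138. The summed protein level was 272, 227, 243 and 220 in CS mice and 208, 249, 236 and 245 in RA mice. The means of 241 ± 23.1 and 234 ± 18.7 (SD, n = 4) differed by less than the spread, and CS exceeded RA within 1 of 4 lanes. mt-Cytb was at 76.1, 62.9, 74.8 and 65.3 in CS mice and at 50.6, 69.3, 70.7 and 69.6 in RA mice. mt-Nd2 leaned the other way, with 47.2 ± 5.36 in CS and 53.7 ± 6.83 in RA. The rRNA sum was 168, 166, 112 and 93.4 in CS mice and 100.3, 114, 103 and 110 in RA mice, with 2 CS mice above and 1 below all RA mice.

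The change in AT2 cells differed from that in AT1 cells. The difference between both types was formed within each mouse and compared between the groups for 7887 genes. Of 13 members tested, 5 passed, beside 1.01% of all genes. The level of mt-Nd4 was higher in AT2 than in AT1 cells by 1.23 on the log2 scale in RA mice and by 0.48 in CS mice, a change of -0.75 (standard error 0.07, limma adjusted p = 0.0014). For mt-Nd2 the gap went from 1.57 to 0.78 and for mt-Cytb from 0.71 to 0.08, so that AT1 and AT2 cells of CS mice held nearly the same mt-Cytb. mt-Nd1 and mt-Nd5 passed as well, with changes of -0.55 and -0.58. All 5 held with each mouse left out and with lane as a block, and none passed with a pseudocount of 0.1 (adjusted p 0.053 to 0.15). Between gCap cells and aerocytes, and between AT2 and gCap cells, none of the 12 members tested passed (limma), with 1 and 0 at an unadjusted p under 0.05. Of all genes, 5 of 6104 and 127 of 6024 passed in these comparisons.

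The endothelial capillary showed no call. In gCap cells, the protein level was 72.7, 73.7, 61.5 and 43.2 in CS mice and 51.5, 73.2, 49.0 and 69.9 in RA mice, and in aerocytes 63.4, 59.2, 49.4 and 38.3 against 50.2, 60.01, 39.1 and 67.9. The spread within each group exceeded the difference of the means, at ratios of 1.03 and 0.968. In aerocytes, 141 of 6925 genes passed, and none of the 12 members tested did. In gCap cells, 725 of 6712 genes (10.8%) passed in this comparison, and none of the 12 members tested did. The nearest was mt-Co1, at 3.26 ± 0.588 in CS and 2.43 ± 0.298 in RA (SD, n = 4; limma adjusted p = 0.084).

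In ciliated cells, 2 complex I genes rose, while the summed protein level of 259 ± 21.0 in CS overlapped with that of 245 ± 7.79 in RA (SD, n = 4). mt-Nd1 was at 38.9, 35.0, 33.0 and 31.2 in CS mice and at 24.7, 27.1, 27.9 and 26.3 in RA mice. mt-Nd2 was at 74.1, 65.8, 70.5 and 65.7 in CS mice and at 54.8, 59.6, 54.4 and 57.0 in RA mice. Both had groups apart, with differences of 0.37 and 0.29 on the log2 scale and an adjusted p of 0.037 each (limma). These were 2 of 13 members tested, where 2.75% of 11147 genes passed as higher in CS and 9.29% had groups apart in that direction. With lane as a block neither passed (adjusted p 0.10 and 0.099), and with any one mouse left out at most 1 did (adjusted p 0.022 to 0.11 over all alternatives).

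mt-Cytb in ciliated cells leaned down, at 86.5, 73.4, 73.2 and 74.7 in CS mice and 86.3, 88.9, 83.9 and 79.1 in RA mice, with a difference of -0.14 (adjusted p = 0.27). Set over mt-Cytb, mt-Nd1 and mt-Nd2 were higher in CS. The level of mt-Nd1 over that of mt-Cytb was 0.449 ± 0.0244 in CS and 0.314 ± 0.0226 in RA (SD, n = 4), and mt-Nd2 over mt-Cytb was 0.899 ± 0.0460 and 0.668 ± 0.0374, both with the groups apart. The same ratio for mt-Nd2 was lower in CS, with groups apart, in goblet cells (0.581 against 0.733) and in cytotoxic T and NK cells (0.383 against 0.561). mt-Nd1 over mt-Cytb was lower in CS in adventitial fibroblasts, at 0.495 ± 0.0322 against 0.622 ± 0.108. These ratios were picked out after their values were seen and were not tested. In ciliated cells, 3 of 14 dissociation genes passed as lower in CS, Hsp90aa1 (21.4 ± 3.18 against 51.6 ± 11.4), Fos and Ier2, and 1 of 4 nuclear-retained transcripts tested did, Malat1 (93.9 ± 5.30 against 120 ± 10.6), where 1.91% of all genes passed as lower. Of 5 epithelial transcripts tested, 1 passed as higher, the club cell transcript Cyp2f2 (28.9 ± 4.32 against 21.1 ± 1.30). The part of these in the mitochondrial genes was not tested.

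Beyond these types, members leaned higher in several immune and stromal cells without a call. Of all genes tested, none of 2756 passed in NG cells, none of 6330 in T cells, and 293 of 9519 in adventitial fibroblasts. NG cells held a summed protein level of 16.96, 20.4, 17.02 and 14.4 in CS mice and 13.8, 12.3, 11.9 and 6.80 in RA mice. The groups were narrowly apart, with mt-Cytb the nearest gene (difference 0.72, limma adjusted p = 0.21). Erythroid markers in NG cells were apart as well, at 35.6, 32.7, 9.53 and 1.99 in CS mice and 1.09, 1.91, 0.623 and 0.247 in RA mice, and their part was not tested. Adventitial fibroblasts held 103, 89.4, 91.0 and 69.6 in CS mice and 54.5, 74.4, 64.2 and 64.4 in RA mice, with 4 members at an unadjusted p under 0.05 and the lowest adjusted p at 0.064, for mt-Co1. In T cells the rRNA sum ran from 44.7 to 45.2 over the 4 CS mice and from 26.8 to 40.5 over the RA mice. The summed dissociation list moved with it, at 39.1 to 44.0 in CS and 49.3 to 60.1 in RA, and its part was not tested. Classical monocytes had all 12 members tested higher on average in CS, and none passed, nor did any of the 6995 genes tested there. Their summed immune transcripts were lower, at 197 to 252 in CS and 266 to 298 in RA. Peribronchial fibroblasts, with 3 mice in each group, gave the only member test of the 275 with groups apart and lower in CS, for mt-Nd1.

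By gene, mt-Co1 leaned higher in CS in 20 of 22 types and passed in 2, mt-Cytb in 20 of 22 and passed in 2, and mt-Nd1 in 18 of 22 and passed in 2. mt-Nd2 leaned higher in 10 of 21 and also passed in 2. mt-Nd4 leaned higher in 15 of 22 and mt-Nd5 in 19 of 22, and each passed in 2. mt-Atp8 did so in 18 of 21 and passed in 1. mt-Atp6 leaned higher in 20 of 21, mt-Co3 in 11 of 21, mt-Nd6 in 8 of 15 and mt-Co2 in only 3 of 20. None of these passed. mt-Rnr1 and mt-Rnr2 leaned higher in 17 and 16 of 22 types and passed in none, with 5 and 3 types at an unadjusted p under 0.05 (limma). Cell types share the mice, so these counts are not independent.

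The tRNA genes gave little signal. Mature tRNAs carry no poly(A) tail. The 22 genes summed to at most 0.374 per 10,000 as a group mean, in AT2 cells of CS mice. The highest on average over types were mt-Td (0.0304), mt-Tw (0.0194), mt-Tm (0.0155), mt-Ta (0.0142) and mt-Tg (0.0131). Only mt-Tm and mt-Tg passed the filter, and only in club cells, with differences of -0.02 each that did not pass. The tRNA sum was higher in CS on average in 12 of 22 types. The groups were apart only in the cells labelled Mast, at 0.104 ± 0.0304 in CS and 0.0524 ± 0.0173 in RA (SD, n = 4 and 3).

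mt-Atp6, mt-Co3 and mt-Co2 varied from mouse to mouse in much the same order across cell types. Over the 17 types with enough cells in all 8 mice, mt-Atp6 averaged 1.30 in C2, 0.706 in C5, 0.0154 in D2 and 0.174 in D5, and 0.0244 in F1, 0.0130 in F3, 0.0314 in M1 and 0.956 in M3. The same 3 mice, C2, C5 and M3, were the highest in 17 of 17 types, although they come from both groups and from 3 lanes. mt-Co3 had another set, with C2 at 1.14, D2 at 0.655 and F3 at 1.51 as the 3 highest in 17 of 17 types, and C5 lowest at 0.0630. mt-Co2 had C5, F3 and M3 on top in 15 of 17 types, at 0.781, 0.333 and 0.775. On log2(level + 0.01), 92.1%, 91.7% and 88.5% of the spread of these 3 genes within types lay between mice, and 38.5% for mt-Cytb.

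**Figure D4:**
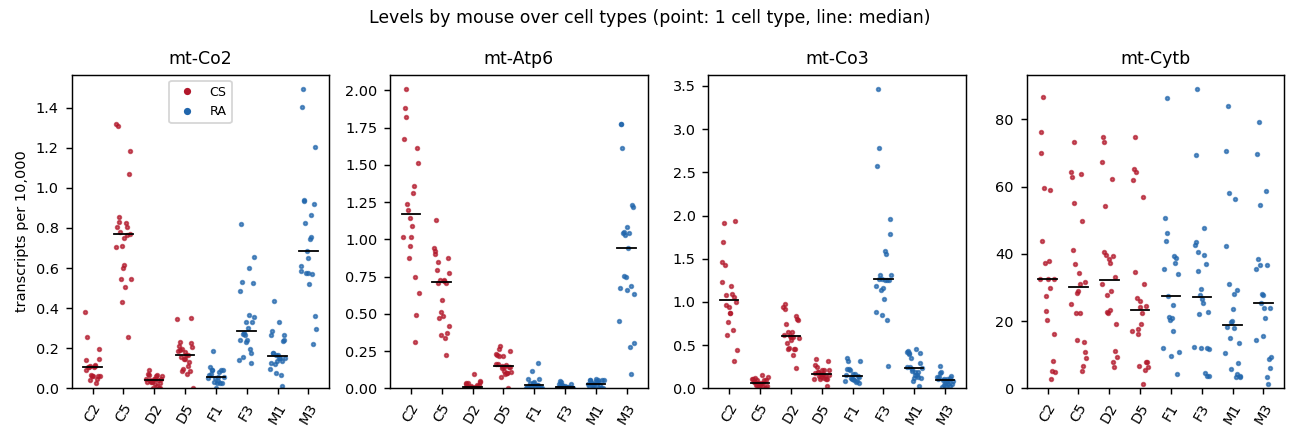
Levels of mt-Co2, mt-Atp6, mt-Co3 and mt-Cytb in transcripts per 10,000 by mouse, each point 1 cell type and each line the median over types, red for CS and blue for RA. The first 3 genes are high in a different set of 3 mice each, drawn from both groups, whereas mt-Cytb varies between cell types in every mouse.

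The copies of mt-Atp6, mt-Co2 and mt-Co3 on chromosome 1 were read at higher levels than these genes in most mice, an exception being mt-Co3 in F3, where its copy Gm28437 was at 1.07. Over all cells, Gm10925, the copy of mt-Atp6, was at 9.38, 1.95, 0.692 and 3.71 in C2, C5, D2 and D5 and at 1.97, 1.86, 3.39 and 4.78 in F1, F3, M1 and M3. All 7 copies together summed to 28.2 in C2, 18.3 in M3 and 7.72 to 15.5 in the other mice. Of 116 tests on them over the 22 types, 2 passed, both for Gm28661, the copy of mt-Co2, a share near the 1.27% over all genes. In alveolar macrophages it was at 7.79, 4.16, 6.201 and 4.33 in CS mice and at 1.54, 1.36, 1.498 and 2.44 in RA mice (limma adjusted p = 0.0019). In AT1 cells it was at 7.98, 3.15, 3.98 and 4.80 against 1.43, 1.14, 2.84 and 3.34 (adjusted p = 0.047). With the copies added to the 13 protein genes, the ratio of the groups was 1.68 in AT1 cells, 1.98 in alveolar macrophages and 1.05 in AT2 cells, and the groups stayed apart in the first 2.

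The mitochondrial percentage in the authors' cell table matched the share of the 37 genes in all 41106 cells (within 1e-06 percentage points). It reached 7.33%, and 3.93% of the cells used exceeded the 5% at which the study's methods cut. The share of AT1 cells with more than 4% was 25.7, 32.4, 20.2 and 13.1% in C2, C5, D2 and D5, and 7.19, 9.38, 7.97 and 4.00% in F1, F3, M1 and M3, so the groups were apart near the cut as well. In alveolar macrophages it was 16.7, 17.5, 22.4 and 4.26% in C2, C5, D2 and D5. In F1, F3, M1 and M3 it was 7.14, 6.82, 6.45 and 0%, so D5 lay within the RA range. Summed over all 37 genes, the groups were apart in AT1 cells (ratio 1.49) and overlapped in alveolar macrophages (ratio 1.59). In AT2 cells, 21.8 to 59.5% of cells in CS and 24.8 to 37.4% in RA lay above 4%. Cells removed before deposit are not in these values.

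Lists of nuclear genes that serve mitochondria had shares of calls on both sides of the 1.27% over all genes. Over the 22 types, 1 of 278 tests passed for mitochondrial DNA replication and transcription genes, 3 of 295 for RNA processing genes and 1 of 154 for translation factors. In gCap cells, where 10.8% of all genes passed, Lrpprc, which stabilises mitochondrial mRNA, rose from 0.226 to 0.342, and the exonuclease gene Rexo2 and the polymerase partner Mrpl12 fell. Of the 14 dissociation genes, 7 fell in gCap cells, and their sum was 65.3 to 99.7 in CS and 128 to 174 in RA, with its part in these changes not tested. Rexo2 fell in adventitial fibroblasts too, from 1.64 ± 0.169 to 0.896 ± 0.0491, as did the ribosome recycling gene Mrrf. Of the biogenesis regulators, 3 of 172 tests passed, all higher, for the nuclear receptor gene Esrrg in both capillary types and the coactivator gene Ppargc1a in club cells (0.947 ± 0.105 against 0.532 ± 0.0789). Of genes of the mitochondrial unfolded protein response and mitochondrial proteases, 5 of 222 passed, all lower. Among them were Hspd1 in ciliated cells (1.84 ± 0.582 against 4.46 ± 0.897) and in club cells, and Atf5 in alveolar fibroblasts. Of these 5 lists, 0 of 69 tests passed in AT1 cells and 0 of 52 in alveolar macrophages (limma), with 8 and 7 at an unadjusted p under 0.05, where 2.38% and 0.549% of all genes passed in either direction.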

How the data were processed

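Reads were trimmed with cutadapt and aligned by the authors with STAR 2.7.3a (STARsolo) to GRCm38.p6, per the labels and the study's methods. The deposited matrix holds estimated counts, which are UMI counts after removal of free RNA with SoupX, not scaled. The cell table gives percent mitochondrial transcripts and cell types, as named by the authors. Their methods removed cells with few transcripts or over 5% mitochondrial. Cells labelled multiplets (1025) or cell cycle (7) were left out.

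Values were scaled to 10,000 per cell and averaged per mouse and type. limma 3.58.1 (R 4.3.3) with a trended eBayes was run on log2(mean + 1), since values are not whole reads, with Benjamini-Hochberg adjustment, and was tested on simulated data. Alternatives changed the pseudocount, filter, block (lane), covariate, averaging, denominator, centring, cell minimum, cells and mice. The covariate was the labelled sex, which Xist and Ddx3y contradicted in all CS libraries. Annotated nuclear copies were found with BLAST 2.17.0 in GENCODE M21. Named were all protein and rRNA genes, tRNA genes past the filter or among the 5 highest, and listed nuclear genes that passed, with up to 5 per list. Members and lists were chosen with earlier results of these data known. Mice were separate animals. Depth sets the precision of low genes, and the spread between mice includes counting error.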

Additional observations from a re-analysis of the deposited data

Results flagged for a closer look

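In 3 of 102 groups of 4 mice, 1 mouse stood apart from the others by Dixon's criterion, which chance gives in about 1 of 20 groups. The summed protein level of ciliated cells in CS mouse C2 was 290, and the other CS mice lay between 246 and 250. The summed protein level of mesothelium in RA mouse M1 was 87.2, and the other RA mice lay between 111 and 115. The summed rRNA level of T cells in RA mouse M1 was 26.8, and the other RA mice lay between 39.1 and 40.5.

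The effect of smoke differed between AT2 and AT1 cells for 5 genes, by a limma test of the difference itself. On the log2 scale, the change in AT2 cells minus that in AT1 cells was -0.55 for mt-Nd1, -0.79 for mt-Nd2, -0.75 for mt-Nd4, -0.58 for mt-Nd5 and -0.64 for mt-Cytb. The cause was not tested.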

How the results depend on the processing

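Of 505 alternative values for 34 results, 412 stayed the same, 81 no longer passed, 12 moved, and no called value changed sign. The same meant still passing for a call, within 1 SD for a level ratio, and near the main count for a count of calls. Of the 12 level ratios, which have no test, 6 crossed 1 in 18 of 150 alternatives: the protein ratios of AT2 cells, gCap cells and aerocytes, and the rRNA ratios of gCap cells (0.741 to 1.30), aerocytes and ciliated cells. The 13 calls on mitochondrial genes became 2 with no filter on genes, 8 with at least 50 cells per mouse, where alveolar macrophages could not be tested, and 7 without cells above 5% mitochondrial transcripts. With 1 mouse left out they ranged from 5 to 14. In AT1 cells, mt-Nd1 and mt-Cytb passed in 20 of 20 alternatives, and mt-Nd2, mt-Nd4 and mt-Nd5 in 19, lost only with no filter on genes (limma adjusted p = 0.054). The ratio of the summed protein level in alveolar macrophages was 2.76 by the median over cells. The rRNA ratio in ciliated cells ranged from 0.978 to 1.23 with 1 mouse left out. With a pseudocount of 0.1, the AT2 and AT1 difference had 0 calls. Adding the nuclear copies was chosen after seeing the data. The causes were not tested. The comparison of alveolar with other macrophages was not run, as the latter had too few cells. The lanes pair 1 mouse of each group, and with lane as a block 11 members passed: mt-Rnr1 was gained in AT1 cells, and mt-Co1 in AT1 cells and both genes in ciliated cells were lost. Several types had under 50 cells in some mice, down to 23 in goblet cells and peribronchial fibroblasts.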
